A study of Mus musculus with 8 samples.

Results

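Gene expression was compared between induced pluripotent stem (iPS) clones made with 4 reprogramming factors, labelled 4F, and embryonic stem (ES) cells. The 4 libraries were taken by their labels and not by any measured value: 4F clone 1, 4F clone 2, ES 1 and ES 2, out of 8 libraries in the series. The ES libraries are biological replicates of D3 cells that carry GFP, a line of the 129S2/SvPas mouse background. The 4F clones are of the BALB/c background and were derived independently of each other. The labels do not list their factors; 4F is the usual name for Oct4, Klf4, Sox2 and c-Myc together. The labels name no agent added to either group. The other libraries of the series serve below only as levels for reference: a pair of BALB/c clones treated with IL6 at 10 ng/mL whose factors were Oct4, Klf4 and Sox2 (3F+IL6), and a pair of libraries of BALB/c mouse embryonic fibroblasts (MEF). The culture medium, the oxygen level, the passage number, the vectors and the starting cells of the clones are, in the sources used here, not given.

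All ES libraries came from a single line and all 4F libraries from BALB/c clones. The method of derivation, the mouse strain, the sex chromosome content and the history of each line therefore changed together, and their parts in any difference below cannot be told apart. With 2 libraries against 2, an exact permutation test of a single gene cannot go below p = 0.333. P-values here come from limma, a linear model that shares information on spread across all genes, and they measure the spread between 2 clones or 2 replicates only.

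Reprogramming with the factors Oct4, Sox2, Klf4 and c-Myc turns a differentiated cell into one that, like an ES cell, can renew itself and form all tissues of the embryo. Mouse pluripotent cells can take up a naive state, like the early epiblast before implantation, or a primed state, like the later epiblast. FGF and Nodal signals favour the primed state, while LIF helps to hold the naive state. Lines also differ in their metabolism, since pluripotent cells draw heavily on glycolysis and cells short of oxygen raise it further through the transcription factor HIF-1.

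Values are RPKM, reads per kilobase of transcript scaled to the depth of the library, which allow levels to be compared between genes. The estimated depth was 15700000 and 14900000 reads in ES 1 and ES 2 and 11700000 and 12500000 in 4F clones 1 and 2. Of 23389 gene symbols, 12190 reached an RPKM of at least 1 in 2 or more of the 4 libraries and were tested on the log2(RPKM + 1) scale. Levels below are in RPKM, for ES 1 and ES 2 or 4F clones 1 and 2 in that order. A difference, or a single number in brackets after a gene, is the 4F mean minus the ES mean on the log2 scale, and for genes with low values it is smaller than the true change. A gene was called where its limma p, after Benjamini-Hochberg adjustment across the whole table, was under 0.05 and the 2 libraries of one group lay above both of the other. In that comparison 9164 genes were called, 75.2% of those tested, with 4446 (36.5%) higher and 4718 (38.7%) lower in the 4F clones. The groups did not overlap in 10775 genes (88.4%). A call was thus the usual outcome for any gene, and counts of genes that differed at least 2-fold carry more information. Those were 2402 (19.7%), of which 1402 (11.5%) were higher and 1000 (8.2%) lower in the 4F clones. A share of the fibroblast profile was also subtracted from the 4F clones, as described with the fibroblast genes below. These 2-fold counts were then 1186 higher and 1508 lower. What was left of each 4F profile was not scaled up again, and the median difference over all genes tested moved from −0.02 to −0.13. The part of this scaling in the shifts seen after the subtraction was not tested.

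Across the genes tested, the correlation of log2(RPKM + 1) was 0.9940 between the ES libraries and 0.9934 between the 4F clones. Between an ES library and a 4F clone it ran from 0.8886 to 0.8990. A 4F clone and a 3F+IL6 clone were at 0.9754 to 0.9876, and a 4F clone and a MEF library at 0.7259 to 0.7286. These correlations run across genes, which are not independent replicates, and describe closeness only. Gene lists named below hold 820 distinct genes, of which 668 were tested. A gene low in one group can pass the filter only through the other, so the counts below are over the members tested and not over all members. A tested gene under 1 RPKM in both libraries of one group must lie higher in the other. Its direction was thus set by the filter, and the list shares below include such genes.

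**Figure D1:**
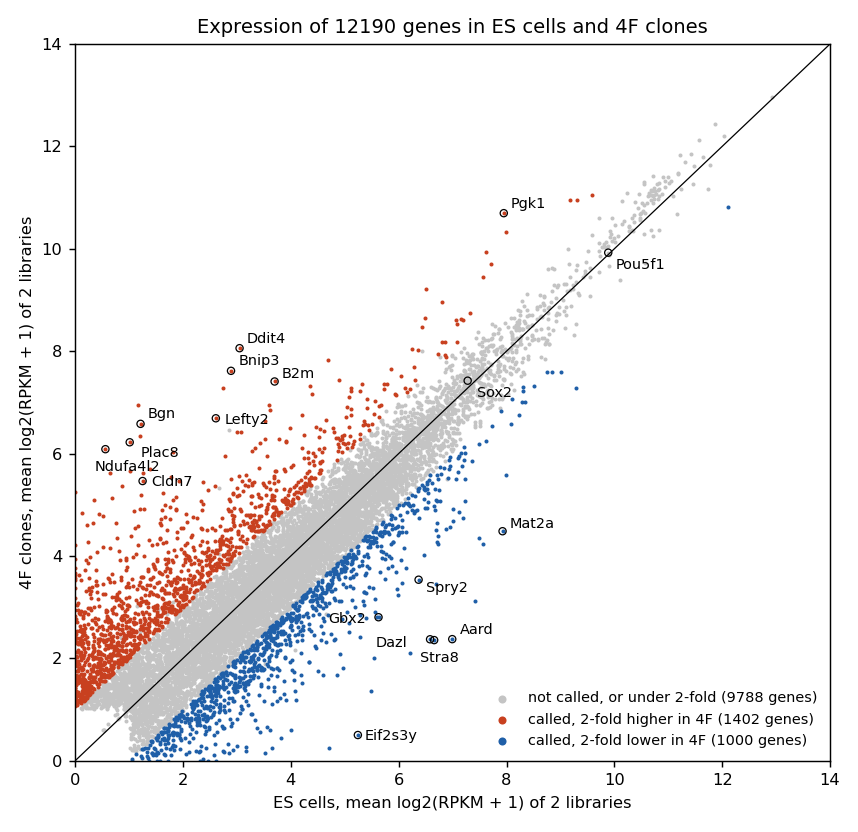
Mean log2(RPKM + 1) of the 2 ES libraries (x axis) and of the 2 4F clones (y axis) for each of the 12190 genes tested, with the line of equality. The 1402 genes called 2-fold higher in 4F clones are red and the 1000 called 2-fold lower are blue; Pou5f1 and Sox2 lie near the line, and Ndufa4l2, Bgn and Ddit4 lie far above it.

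The genes of these 4 factors were read first. Pou5f1, the gene of Oct4 (chr17:35506018-35510772 in mm10), was at 953 and 938 RPKM in ES 1 and ES 2 and 1003 and 939.6 in 4F clones 1 and 2. The groups overlapped, and the difference of 0.04 (SE 0.046) was not called (limma adjusted p = 0.477). Sox2 was at 159.9 and 149 RPKM in ES cells and 164 and 177 in the clones, a difference of 0.14 (SE 0.057; limma adjusted p = 0.0614) that was not called either. These depend on the scaling: with quantile normalization Pou5f1 was called lower, at −0.29 (limma adjusted p = 0.00046), and with median centring Sox2 was called higher, at 0.17 (limma adjusted p = 0.032). Klf4 was lower in the clones, at 49.2 and 48.3 against 68.2 and 69 RPKM, a difference of −0.48 (limma adjusted p = 0.000186), a call lost with all 8 libraries in the fit (limma adjusted p = 0.18). Myc, the gene of c-Myc (chr15:61985391-61990374), was higher, at 53 and 54.6 RPKM in the clones and 20.9 and 20.4 in ES cells, a difference of 1.34 (SE 0.048; limma adjusted p = 1.26e-05). Reads of a delivered factor and of the cell's own gene are not separated in these values. All 8 markers of pluripotent cells had at least 1 RPKM in every ES and 4F library, and their summed level was 5107 and 4981 RPKM in ES cells and 6110 and 6014 in the clones.

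Genes that cells raise when oxygen is short were mostly higher in the clones. Of 22 low-oxygen response genes tested, 18 were called higher and 4 lower. Higher by at least 2-fold were 13, 59.1% of the list beside 11.5% of all genes tested, and the list's median difference was 1.55 beside −0.02 over all genes tested. The 4 lower genes, named after their values were seen, were the oxygen-regulated factor genes Hif1a (−0.41) and Epas1 (−0.47), the histone demethylase gene Kdm3a (−0.70) and the pyruvate dehydrogenase kinase gene Pdk1 (−0.38).

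The largest difference of all genes named here was that of Ndufa4l2 (chr10:127514967-127517154), a mitochondrial protein gene known as a HIF-1 target. It was at 0.608 and 0.355 RPKM in ES 1 and ES 2 and 75.6 and 59.2 in the 4F clones, a difference of 5.52 (SE 0.14; limma adjusted p = 6.67e-06). MEF held it at 0.358 and 0.117 RPKM, as low as ES cells, and the 3F+IL6 clones at 89.8 and 20.2. Ndrg1 (chr15:66929318-66969640), a stress gene induced by low oxygen, was at 1.26 and 1.37 RPKM in ES cells and 86.5 and 74.6 in the clones (5.13). Ddit4 (chr10:59949669-59951834), which encodes an inhibitor of the growth kinase complex mTORC1, was at 7.63 and 6.95 RPKM in ES cells and 278 and 254 in the clones (5.01, SE 0.068; limma adjusted p = 3.91e-06). Each 4F value lay far above both ES values, and MEF were at 13.7 and 13.7 RPKM. Ddit4 also belongs to the list of the amino acid stress response. Bnip3 (chr7:138890836-138909519), a gene of mitochondrial clearance, was at 5.72 and 7.19 RPKM in ES cells and 192 and 198 in the clones (4.72). Adm (chr7:110627661-110629820), the gene of the peptide hormone adrenomedullin, was at 0.278 and 0.244 (ES) against 23.5 and 24.5 (4F; difference 4.31). Egln3 (3.42), a prolyl hydroxylase gene that acts on HIF factors, and P4ha1 (3.07), a collagen prolyl hydroxylase gene, followed.

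The promoters of the 3 genes of this list with the largest differences among those in the RefSeq promoter table are shown because HIF-1 is known to bind a short core, ACGTG or GCGTG, in its targets. Each window of 300 bases runs from 250 bases before the gene's start to 50 bases from it, 5′ to 3′ on the gene's strand, with matches to the core on either strand in capitals. The sequences are from RefSeq (build GRCm38.p6): Ddit4 is chr10:59951721-59952020 on the minus strand, Bnip3 is chr7:138909457-138909756 on the minus strand and Adm is chr7:110627407-110627706 on the plus strand.
Ddit4: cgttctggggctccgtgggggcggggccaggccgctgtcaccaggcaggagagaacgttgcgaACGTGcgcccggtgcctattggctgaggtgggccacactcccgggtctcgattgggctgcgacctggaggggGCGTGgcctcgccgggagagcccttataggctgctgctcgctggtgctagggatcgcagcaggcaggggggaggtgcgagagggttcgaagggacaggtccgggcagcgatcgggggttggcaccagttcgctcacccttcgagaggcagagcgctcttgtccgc
Bnip3: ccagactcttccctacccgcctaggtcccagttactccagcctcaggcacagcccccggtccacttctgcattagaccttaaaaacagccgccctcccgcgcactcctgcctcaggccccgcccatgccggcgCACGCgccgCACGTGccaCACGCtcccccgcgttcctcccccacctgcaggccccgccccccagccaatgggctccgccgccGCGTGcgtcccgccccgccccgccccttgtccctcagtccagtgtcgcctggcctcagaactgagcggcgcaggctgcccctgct
Adm: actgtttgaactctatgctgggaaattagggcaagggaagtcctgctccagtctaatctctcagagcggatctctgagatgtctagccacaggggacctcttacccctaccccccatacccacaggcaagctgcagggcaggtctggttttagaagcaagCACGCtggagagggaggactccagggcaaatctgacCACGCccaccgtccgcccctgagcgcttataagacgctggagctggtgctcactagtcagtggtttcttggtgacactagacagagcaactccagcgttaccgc
Matches began at positions −187 and −115 from the start in Ddit4 and at −90 and −54 in Adm. Bnip3 held 5, at −117, −108, −107, −99 and −35, of which those at −108 and −107 overlap. Of 18 low-oxygen genes with a window, 15 (83.3%) held the core, beside 43.8% of all 32851 windows. The germline genes described below held it in a like share, 26 of 32 windows (81.2%). A match is a run of letters and was not shown to be bound.

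Glycolysis genes moved in the same direction. Of 24 tested, 19 were called higher, 14 of them by at least 2-fold, and 4 lower, 1 of them by at least 2-fold; the median difference was 1.45. Genes of every step from the hexose phosphates to lactate were among the higher ones. The aldolase gene Aldoc was at 2.92 and 2.71 RPKM in ES cells and 46 and 39.9 in the clones (3.52), the lactate exporter gene Slc16a3 at 7.3 and 7.57 (ES) against 90.7 and 80.2 (4F; difference 3.35), and the enolase gene Eno2 at 0.598 and 0.932 (ES) against 16.2 and 16.1 (4F; difference 3.29). Abundant members moved too. Pgk1 (chrX:106187100-106203699), the gene of phosphoglycerate kinase, was at 247 and 246 RPKM in ES cells and 1702 and 1614 in the clones, a difference of 2.75 (SE 0.042; limma adjusted p = 3.91e-06). The lactate dehydrogenase gene Ldha was at 256 and 252 (ES) against 1345 and 1242 (4F; difference 2.34), and the triose phosphate isomerase gene Tpi1 at 90.2 and 90.6 (ES) against 632 and 552 (4F; difference 2.69). Summed over the list, the level was 7539 and 7652 RPKM in ES cells and 17100 and 15840 in the clones.

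The list held exceptions. The glucose transporter gene Slc2a3 was at 356 and 355 RPKM in ES cells and 361 and 362 in the clones, and its difference of 0.02 was not called (limma adjusted p = 0.553). The 4 lower members, named after their values were seen, were Eno3 (−1.39), Ldhb (−0.49), Pdk1 (−0.38) and the hexokinase gene Hk2 (−0.28). Genes of oxidative phosphorylation, the oxygen-using route to ATP, differed little: of 42 tested, 17 were called higher and 8 lower, 0 of them by 2-fold in either direction, with a median of 0.11. Their largest difference was that of the X-linked subunit gene Ndufa1 (0.92), and the lowest that of Ndufs1 (−0.56).

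**Figure D2:**
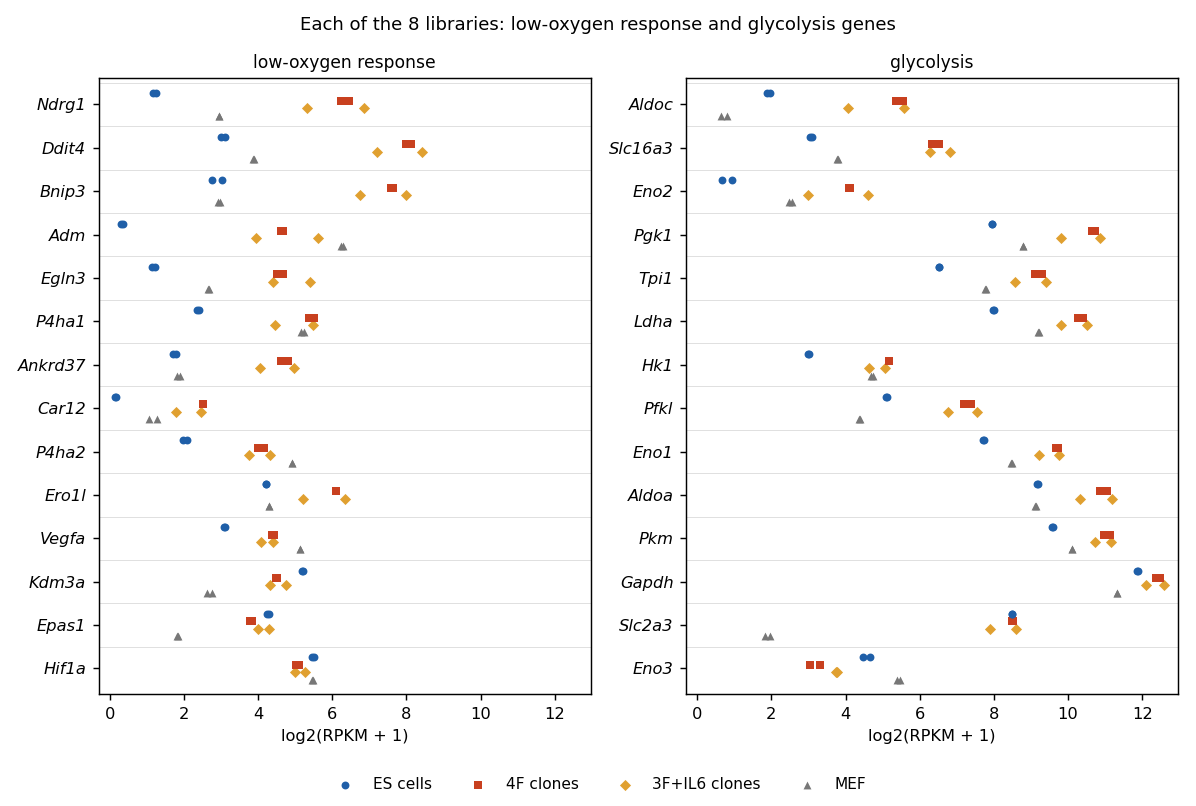
log2(RPKM + 1) in each of the 8 libraries for 14 low-oxygen response genes (left) and 14 glycolysis genes (right), with 1 point per library. For Ddit4 the 4F clones were at 278 and 254 RPKM and the ES libraries at 7.63 and 6.95; Slc2a3 and the lower members at the foot of each panel go against the rest.

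The 3F+IL6 clones lay on both sides of the 4F clones for these genes, with Ddit4 at 339 and 146 RPKM and Bnip3 at 255 and 106 in 3F+IL6 clones 1 and 2. The oxygen level of the cultures is not given, and its part in these differences was not tested.

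Genes of the pluripotent state were not uniformly higher or lower. Of 29 pluripotency network genes, 10 were called higher and 14 lower, 3 and 7 of them by at least 2-fold, with a median of −0.32. Lin28a, an RNA-binding protein gene that blocks let-7 maturation, was higher, at 83.5 and 85.9 RPKM in the clones and 26.5 and 27.1 in ES cells (1.63). Tcf15, a transcription factor gene tied to exit from the naive state, was lower, at 30.3 and 26 against 142 and 134 RPKM (−2.26). So were Dppa2 (−1.69), L1td1 (−1.52) and Fbxo15 (−1.34), while Utf1, at 319.8 and 314 (ES) against 386 and 311 (4F), overlapped between the groups and was not called (0.13).

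Genes of the naive state were mostly lower in the clones and genes of the primed state mostly higher, with exceptions in both lists. Of 17 naive genes tested, 12 were called lower and 4 higher, with a median of −0.68. The homeobox gene Gbx2 was at 50.8 and 46.1 RPKM in ES cells and 5.55 and 6.45 in the clones, a difference of −2.82 (SE 0.087; limma adjusted p = 9.37e-06). The adhesion gene Jam2 was at 60.04 and 61.7 (ES) against 10.7 and 13.4 (4F; difference −2.26), the transcription factor gene Klf5 at 149 and 151 (ES) against 44.5 and 43.8 (4F; difference −1.74), and the imprint-guarding zinc finger gene Zfp57 at 137 and 137 (ES) against 40.4 and 59.9 (4F; difference −1.46). Klf2, at 36.7 and 35.8 (ES) against 34.8 and 31.2 (4F), was not called (−0.14; limma adjusted p = 0.105).

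The 4 naive genes called higher went against the rest. They were Dppa3 (3.10), Tcl1 (1.94), Fgf4 (1.45) and Pecam1 (0.19). The Pecam1 call was lost with all 8 libraries in the fit (limma adjusted p = 0.27) and without ES 1 or ES 2 (limma adjusted p = 0.17 and 0.12). Dppa3, also called Stella, guards DNA methylation in the early embryo and marks germ cells. It was at 0.724 and 0.845 RPKM in ES cells and 13.1 and 15.5 in the clones (SE 0.11; limma adjusted p = 1.19e-05). Tcl1, which encodes a coactivator of the kinase Akt, was at 12.9 and 11.7 RPKM in ES cells and 47.9 and 51.9 in the clones, without overlap.

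Of 17 primed state genes tested, 11 were called higher, 10 of them by at least 2-fold (58.8% of the list), and 3 lower; the median difference was 1.62. Otx2 (chr14:48657677-48673819), a homeobox gene that steers cells toward the primed state, was at 2.95 and 3.37 RPKM in ES cells and 27.1 and 27.5 in the clones, a difference of 2.77 (SE 0.077; limma adjusted p = 7.53e-06). The tight junction gene Cldn6 was at 10.1 and 10.8 (ES) against 104 and 93.1 (4F; difference 3.11), the epithelial transcription factor gene Grhl2 at 1.14 and 1.26 (ES) against 15.5 and 15.6 (4F; difference 2.91), and the kinase gene Pim2 at 7.66 and 7.37 (ES) against 43.1 and 43.7 (4F; difference 2.38). Fgf15 (2.19) was higher from a low level. The 3 lower genes, named in part after their values were seen, were Dusp6 (−2.07), Foxd3 (−1.43) and Etv4 (−1.30). Etv5, at 98.9 and 100.4 (ES) against 97.3 and 98 (4F), and Zic2, at 8.55 and 8.52 (ES) against 7.19 and 9.09 (4F), were not called. Cldn6 and Grhl2 also belong to the epithelial list, and MEF held Otx2 at 0.0652 and 0 RPKM.

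Signalling genes were called in both directions within each pathway. So were all genes tested, of which 36.5% were called higher and 38.7% lower. The counts of the pathway lists are to be read beside these shares. The ligand genes Fgf4 and Fgf15 were higher in the clones. Fgf4 was at 32.9 and 32.4 RPKM in ES cells and 89.4 and 92.5 in the clones (1.45), and Fgf15 at 0.949 and 1.07 (ES) against 7.21 and 9.2 (4F). Most genes named here that the FGF and ERK pathway switches on to restrain itself were lower. The Sprouty inhibitor gene Spry2 was at 80.2 and 83.2 RPKM in ES cells and 9.6 and 11.7 in the clones, a difference of −2.83 (SE 0.093; limma adjusted p = 1.03e-05). Phlda1 was at 35.2 and 31 (ES) against 4.5 and 4.96 (4F; difference −2.57), the inhibitor gene Spred1 at 40.1 and 42 (ES) against 7.76 and 9.68 (4F; difference −2.12), and Dusp6, the gene of an ERK phosphatase, at 42.5 and 43.3 (ES) against 8.96 and 9.97 (4F; difference −2.07). Spry4 was lower as well (−2.65), while Spry1 (0.54) and Dusp4 (0.50), inhibitors of the same kind named after their values were seen, were higher. Over the list of 21, 8 were called higher and 11 lower, 2 and 7 of them by at least 2-fold, with a median of −0.49.

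In the Nodal and TGF-beta list of 20 genes, 8 were called higher and 8 lower, and the largest differences were those of the Nodal antagonists. Lefty2 was at 4.95 and 5.26 RPKM in ES cells and 92.5 and 113 in the clones, a difference of 4.08 (SE 0.10; limma adjusted p = 6.6e-06). Lefty1 was at 6.86 and 7.54 (ES) against 44.6 and 48.4 (4F; difference 2.54). Nodal itself was at 10.6 and 10.2 (ES) against 18.2 and 19.4 (4F; difference 0.80), and the inhibitory Smad gene Smad7 was lower (−1.69). The activin subunit genes moved apart, with Inhba higher (2.35) and Inhbb lower (−1.67); MEF held Inhba at 467 and 459 RPKM, and with the fibroblast share subtracted, as described below, its difference was −0.43.

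In the BMP list of 15 genes, 6 were called higher and 6 lower, and 4 higher and 9 lower with the fibroblast share subtracted, which moved the median from −0.19 to −0.54. The ligand gene Bmp4 was at 33 and 35.5 RPKM in ES cells and 7.68 and 7.84 in the clones (−2.01), and its target Id1 at 103 and 104 (ES) against 23.7 and 24.6 (4F; difference −2.06). The BMP antagonist gene Grem1 was higher, at 12.6 and 14.4 against 0.272 and 0.0817 RPKM (3.62), with 71 and 67 RPKM in MEF. Id2 was higher too (1.71), so targets of the pathway did not move together. Of 13 Wnt genes, 5 were called higher and 8 lower, with Lef1 (1.62) and the ligand genes Wnt6 (−1.55) and Wnt7b (−1.29) the farthest from 0. Among 21 LIF and IL6 pathway genes, 8 were called higher and 10 lower, with a median of −0.08. The receptor genes Il6ra (−1.31) and Il6st (−0.96) were lower, and the feedback inhibitor gene Socs3, at 57.9 and 55.2 (ES) against 56.6 and 50.8 (4F), was not called (−0.08).

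**Figure D3:**
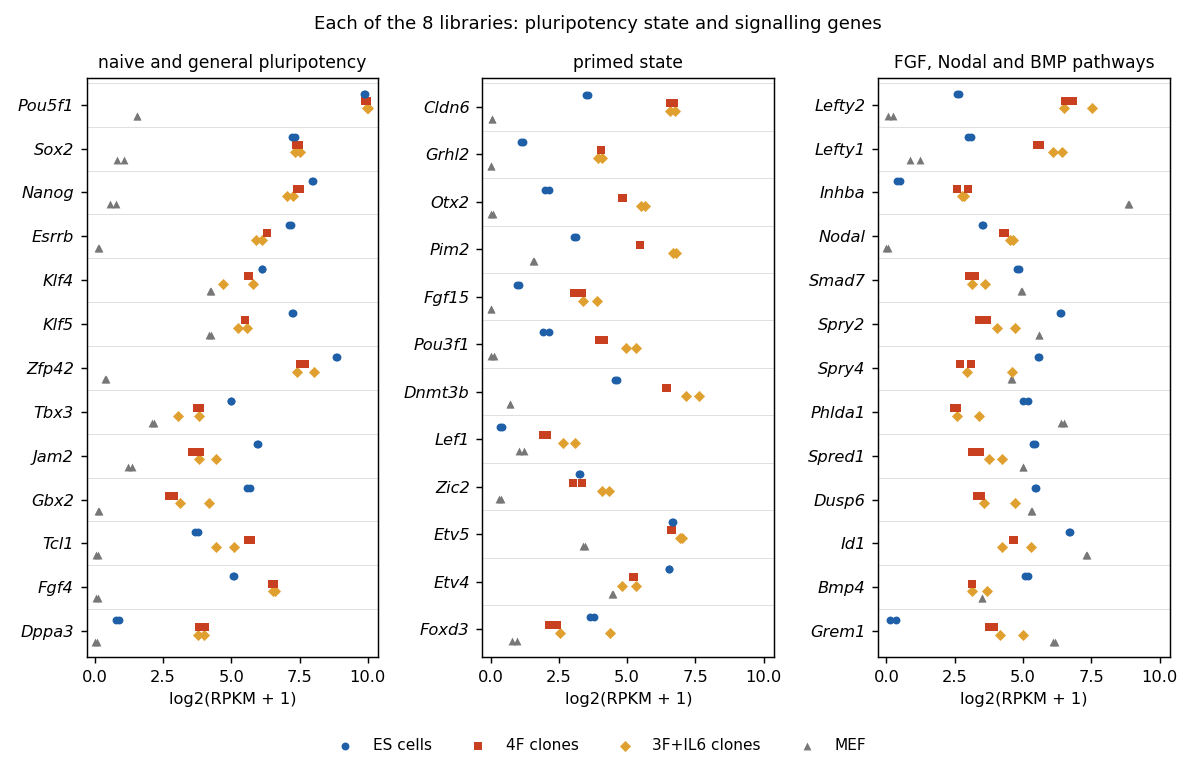
log2(RPKM + 1) in each of the 8 libraries for naive and general pluripotency genes (left), primed state genes (middle) and genes of the FGF, Nodal and BMP pathways (right). Otx2 was at 27.1 and 27.5 RPKM in the 4F clones against 2.95 and 3.37 in ES cells, and Spry2 at 9.6 and 11.7 against 80.2 and 83.2.

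Genes of epithelial junctions, which hold cells of a sheet together, were higher in nearly the whole list. Of 24 tested, 21 were called higher, 14 of them by at least 2-fold (58.3%), and 2 lower, with a median of 1.91. The claudin gene Cldn7 (chr11:69964779-69967885) was at 1.32 and 1.44 RPKM in ES cells and 47.3 and 39.3 in the clones, a difference of 4.21 (SE 0.10; limma adjusted p = 6.53e-06), and it was listed at 0 in both MEF libraries. Esrp1, a splicing regulator gene of epithelial cells, was at 0.486 and 0.374 (ES) against 17.5 and 16.7 (4F; difference 3.67), the polarity gene Crb3 at 2.01 and 2.11 (ES) against 33.8 and 24.6 (4F; difference 3.28), and the serine protease gene Prss8 at 1.57 and 1.61 (ES) against 20.7 and 17.3 (4F; difference 2.94). Lsr, at 18.5 and 18.7 (ES) against 20.7 and 18.9 (4F), was not called (0.08). The lower genes, named after their values were seen, were Marveld2 (−0.80) and Spint1 (−0.30). Of 11 genes of the mesenchymal transition, 5 were called higher and 6 lower; Zeb1, a repressor of epithelial genes, was lower (−0.84), and Snai1 (1.72) and Twist2 (2.26) were higher. Neither was called higher once the fibroblast share described below was subtracted, at 0.57 and −0.19.

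Genes of the interferon response and of MHC class I presentation, by which cells show peptides to the immune system, were higher in the clones almost throughout. Of 23 interferon genes tested, 21 were called higher, 17 of them by at least 2-fold (73.9%), and 1 lower, Xaf1 (−0.52), named after its value was seen. The median was 1.82. Of the 33 genes written in the list, 10 did not reach the RPKM minimum and were not tested. Among those tested, Ifi27l1, Psmb8, Zbp1 and Tap1 reached it only in the clones, so their direction was set by the filter. Ifi27l1 was at 0.492 and 0.388 RPKM in ES cells and 26.5 and 26.1 in the clones (4.25), and the immunoproteasome genes Psmb8 at 0.0526 and 0.221 (ES) against 13.1 and 11.5 (4F; difference 3.55) and Psmb9 at 0.817 and 1.03 (ES) against 15.4 and 13.8 (4F; difference 3.02). Bst2 (chr8:71534255-71537456), the gene of the virus-tethering protein tetherin, was at 23.7 and 25.8 RPKM in ES cells and 249 and 204 in the clones, a difference of 3.14 (SE 0.10; limma adjusted p = 1.02e-05). The nucleic acid sensor gene Zbp1 was at 0.191 and 0.234 (ES) against 9 and 8.1 (4F; difference 2.98). Trim25 was not called, at 48 and 47.5 RPKM in ES cells and 44.6 and 46.4 in the clones.

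All 14 MHC class I genes tested were called higher, 13 of them by at least 2-fold (92.9%), with a median of 2.56. Of the 18 genes in the list, 4 were not tested. Among those tested, H2-T22, H2-Q2, Tap1 and Tap2 passed the filter only through the clones, so their direction was set by it. B2m and H2-Q4 were above 1 RPKM in both groups. B2m (chr2:122147686-122153083), the shared light chain, was at 12.7 and 11.3 RPKM in ES cells, 182 and 157 in the clones and 281 and 278 in MEF, a difference of 3.71 (SE 0.088; limma adjusted p = 6.31e-06). The heavy chain genes H2-T22, at 0.181 and 0.133 (ES) against 14.6 and 13.6 (4F; difference 3.71), and H2-Q4, at 1.26 and 1.36 (ES) against 29.2 and 29.2 (4F; difference 3.71), were at similar differences. The peptide transporter genes Tap1 (2.93) and Tap2 (2.78) followed. The annotations of Tap1 and Psmb9 overlap, and H2 genes are near-identical copies whose sequences differ between mouse strains, so values of single H2 genes are uncertain.

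The promoter of Bst2 is shown because it holds the interferon-stimulated response element, searched on both strands as GAAA, 2 bases of any kind and GAAA again. Its RefSeq window is chr8:71537423-71537722 on the minus strand of GRCm38.p6, with matches in capitals.
Bst2: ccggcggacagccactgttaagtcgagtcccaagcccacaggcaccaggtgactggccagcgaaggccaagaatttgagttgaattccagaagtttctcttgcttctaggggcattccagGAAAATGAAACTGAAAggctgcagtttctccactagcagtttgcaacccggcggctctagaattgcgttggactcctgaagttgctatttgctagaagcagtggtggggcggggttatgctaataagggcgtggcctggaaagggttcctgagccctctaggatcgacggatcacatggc
The 2 matches overlap and begin at −130 and −124 from the start. Of 16 interferon genes with a window, 5 (31.2%) held the element, beside 3.44% of all windows; Psmb8 and Psmb9 were among those without these letters in the window.

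Expression of germ cell genes was mostly lower in the clones. Of 38 germline genes tested, 24 were called lower and 8 higher, 14 and 5 of them by at least 2-fold, with a median of −0.73. At least 2-fold lower was 36.8% of the list, beside 8.2% of all genes. Stra8 (chr6:34920163-34939344), a gene that retinoic acid induces at the start of meiosis, was at 101 and 99.3 RPKM in ES cells and 3.81 and 4.46 in the clones, a difference of −4.30 (SE 0.075; limma adjusted p = 4.76e-06). Dazl (chr17:50279395-50293636), which encodes a germ cell protein that binds RNA, was at 94.3 and 95.4 RPKM in ES cells and 3.98 and 4.39 in the clones, a difference of −4.21 (limma adjusted p = 3.91e-06). The X-linked gene Taf7l, a germ cell form of a TFIID subunit, was at 17.4 and 17.3 (ES) against 1.79 and 2.67 (4F; difference −2.52), Stk31 at 7.59 and 8.39 (ES) against 1.26 and 1.24 (4F), and Sohlh2 at 55.3 and 56 (ES) against 15.8 and 14.1 (4F; difference −1.83). Gtsf1l was higher, at 38.5 and 41.6 against 10.4 and 10.9 RPKM (1.81). Rhox5, an X-linked homeobox gene at 129 and 129 (ES) against 117 and 132 (4F), was not called.

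The promoter of Taf7l is shown because many germline genes carry an E-box, CACGTG, through which the MGA and MAX repressor acts. Its RefSeq window is chrX:134476441-134476740 on the minus strand of GRCm38.p6, with the match in capitals at −49.
Taf7l: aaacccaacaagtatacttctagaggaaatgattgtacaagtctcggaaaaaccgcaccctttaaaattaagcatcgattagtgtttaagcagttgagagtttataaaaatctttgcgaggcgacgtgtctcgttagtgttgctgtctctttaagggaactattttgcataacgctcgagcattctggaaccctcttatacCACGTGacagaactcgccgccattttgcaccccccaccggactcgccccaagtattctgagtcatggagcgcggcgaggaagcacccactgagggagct
Of 32 germline genes with a window, 11 (34.4%) held the E-box, beside 7.15% of all windows, and 15 (46.9%) held the E2F6 motif TCCCGC, beside 20% of all windows. Both motifs were searched on both strands, and an E-box also holds the letters of the low-oxygen core. The Stra8 and Dazl windows were among those without the E-box letters. Of the factors named, Mga, at 17.8 and 18.4 (ES) against 16.9 and 17.5 (4F), was not called (−0.07), Max was lower (−0.29), and E2f6 was lower, at 10.4 and 10.1 against 21.8 and 21.5 RPKM (−1.01).

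Chromatin genes differed by smaller steps. Of 14 DNA methylation genes, 7 were called higher and 5 lower. The de novo methyltransferase gene Dnmt3b (chr2:153649450-153687730) was at 24 and 22.8 RPKM in ES cells and 86.4 and 85.2 in the clones, a difference of 1.83 (SE 0.048; limma adjusted p = 6.71e-06). The oxidase gene Tet1 was at 14.3 and 14.2 (ES) against 31.1 and 31.8 (4F; difference 1.09), and the methyl-binding genes Mbd2 (−1.64) and Mbd1 (−1.30) were lower. Of 23 Polycomb genes, 5 were called higher and 11 lower. Ezh1 was at 3.32 and 3.18 RPKM in ES cells and 14.8 and 15.1 in the clones (1.91), and the ubiquitin ligase genes Rnf2 (−1.21) and Bmi1 (−1.06) were lower. Eed, at 112 and 109 (ES) against 104 and 120 (4F), was not called.

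Imprinted genes are expressed from the copy of only a single parent, and their levels can shift in cultured lines. In the Dlk1-Dio3 domain, 3 of 7 genes reached the minimum, and all 3 were called higher. Meg3 and Mirg reached it only in the clones, so their direction was set by the filter. Among the genes not tested, Dlk1 was higher in the clones and Dio3 lower, at 0.453 and 0.596 against 0.815 and 0.821 RPKM. Rtl1 and Begain overlapped between the groups. Rian, a non-coding RNA gene at 2.29 and 2.24 (ES) against 19.98 and 23.9 (4F; difference 2.81), and Meg3, another at 0.332 and 0.308 (ES) against 2.52 and 3.65 (4F; difference 1.62), led, and MEF held Rian at 118 and 117 and Meg3 at 24 and 24. With the fibroblast share described below subtracted, their differences were 2.20 and 0.89. Of 28 other imprinted genes, 14 were called higher and 8 lower, but 9 and 11 after that subtraction. Ascl2 (3.02), Cdkn1c (2.46) and Grb10 (2.13) were higher and Impact (−1.66) lower. MEF held Grb10 at 132 and 132 RPKM against 14.4 and 13.8 in the clones, and its difference after the subtraction was 0.89. Snurf was listed at 0 in both ES libraries and at 36.8 and 37.4 RPKM in the clones, while Snrpn, whose transcript contains Snurf, was at 34.5 and 35.1 RPKM in ES cells and 34.9 and 35.5 in the clones and was not called. How reads were shared between these overlapping genes is not given, so the Snurf value is uncertain.

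A list of senescence genes and targets of p53, the factor that halts or kills damaged cells, was mostly higher in the clones. It also holds Trp53, the gene of p53 itself, and the cell cycle inhibitor gene Cdkn2b. Of 26 genes, 21 were called higher, 13 of them by at least 2-fold (50%), and 3 lower, with a median of 1.05. Cdkn1a (chr17:29090976-29100727), which encodes p21, an inhibitor of the cell cycle, was at 10.6 and 10.5 RPKM in ES cells and 82.5 and 72.5 in the clones, a difference of 2.76 (SE 0.073; limma adjusted p = 6.71e-06). The pro-apoptotic genes Bbc3, at 6.64 and 6.23 (ES) against 49.1 and 40.4 (4F; difference 2.62), and Pmaip1, at 14.4 and 13.6 (ES) against 75.6 and 75.2 (4F; difference 2.35), were higher too. So was the stress cytokine gene Gdf15 (2.40). Trp53 itself was lower (−0.57), as were Plk3 (−1.04) and 9630033F20Rik (−0.55), the older symbol of Tigar, a p53-induced gene that restrains glycolysis; these 3 were named after their values were seen. Perp was not called, at 27.9 and 28.6 (ES) against 30.1 and 27.6 (4F). Among 22 G1 cell cycle genes, 12 were called higher and 6 lower, with the inhibitor genes Cdkn2b (2.29) and Cdkn2a (1.73) higher and E2f3 (−1.51) and E2f2 (−1.35) lower.

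Listed targets of MYC were called in both directions, as were all genes tested, of which 36.5% were higher and 38.7% lower. The part of the higher Myc level in their differences was not tested. Of 32 MYC targets, 9 (28.1%) were called higher and 14 lower. Their median was −0.05, beside −0.02 over all genes tested. By at least 2-fold, 2 were higher and 0 lower. The 2 were Ldha (2.34), which is also a glycolysis gene, and the telomerase gene Tert, at 1.76 and 2.08 RPKM in ES cells and 6.51 and 5.91 in the clones (1.31). The RNA polymerase I gene Polr1b (−0.95) and the nucleolar gene Nop56 (−0.73) were lower. With the fibroblast share described below subtracted, 8 MYC targets were called higher and 17 lower. Their median was then −0.19, beside −0.13 over all genes tested. In the MYC family of 11, Mycl1 was higher, at 8.84 and 10.1 against 1.36 and 1.34 RPKM (2.15), and Mycn, at 29.7 and 29.6 (ES) against 27.2 and 28.1 (4F), was not called (−0.10).

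Amino acid and stress genes included a few large differences. Mat2a (chr6:72432799-72439558), which makes the methyl donor S-adenosylmethionine, was at 240 and 245 RPKM in ES cells, 17.6 and 26 in the clones and 113 and 111 in MEF, a difference of −3.44 (SE 0.17; limma adjusted p = 2.76e-05). It belongs to the list of serine, glycine and threonine metabolism, in which 8 genes were called higher and 7 lower of 20, Mat2a included. In that list Gldc, the glycine decarboxylase gene, was at 46.6 and 46.1 (ES) against 131 and 129 (4F; difference 1.46), and Cbs was higher (1.66). Of 24 genes of the amino acid stress response, 15 were called higher and 3 lower. The largest difference of that list was that of Ddit4 (5.01), which is also in the low-oxygen list. Ddit3 was higher (2.09), and Atf5 was lower, at 9.55 and 8.85 against 61.5 and 61.6 RPKM (−2.62). Of 22 NRF2 and glutathione genes, 13 were called higher and 6 lower. The glutathione peroxidase gene Gpx2 was at 1.76 and 1.15 (ES) against 32.2 and 26.5 (4F; difference 3.63), and Srxn1 was lower (−1.75). Of 24 sterol synthesis genes, 11 were called higher and 8 lower, and Insig1 (1.08) alone passed 2-fold.

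**Figure D4:**
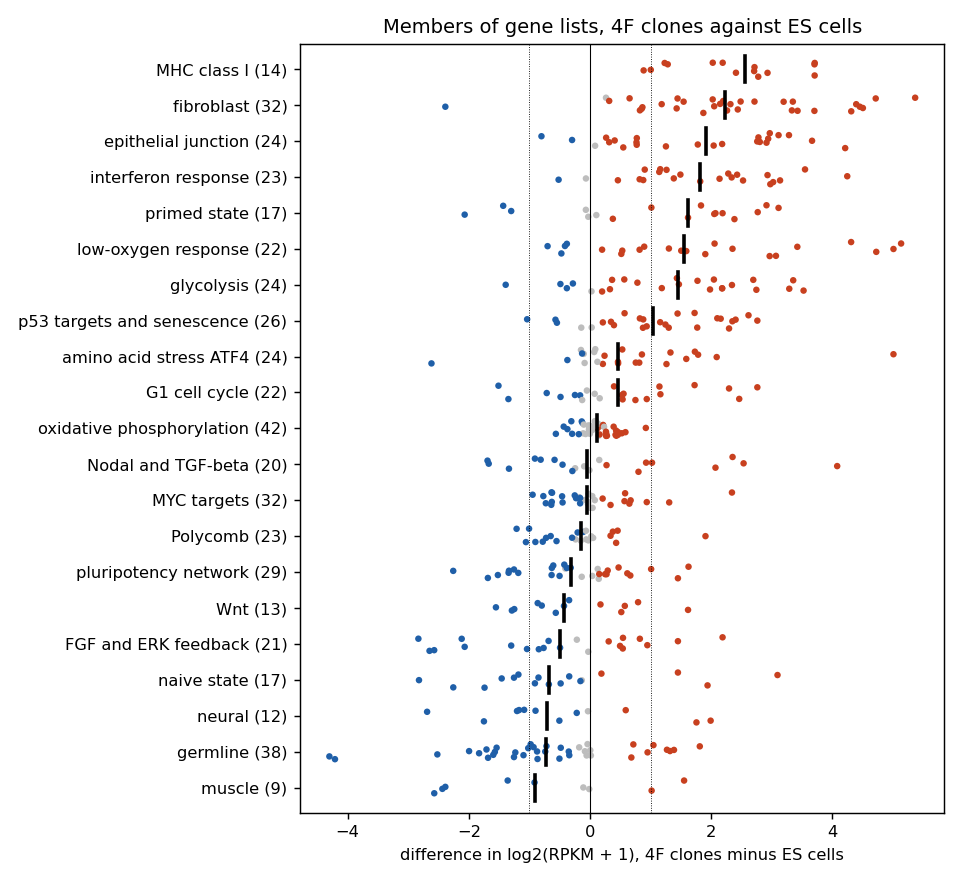
Difference of each tested member of 21 gene lists (x axis, log2(RPKM + 1), 4F clones minus ES cells), with the number of members tested in brackets and the list's median as a black bar. Red points were called higher, blue points lower and grey points not called; dotted lines mark a 2-fold difference. Medians ran from 2.56 for MHC class I to −0.92 for muscle genes.

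Genes of fibroblasts and their matrix were higher in the clones, and their levels were set beside those of MEF. Of 32 tested, 30 were called higher, 25 of them by at least 2-fold (78.1%), and 1 lower, with a median of 2.23. The proteoglycan gene Bgn (chrX:73483602-73495933) was at 1.19 and 1.45 RPKM in ES cells, 102 and 88.1 in the clones and 1172 and 1147 in MEF, a difference of 5.37 (SE 0.097; limma adjusted p = 4.76e-06). Col1a1, a collagen gene, was at 1.59 and 1.66 RPKM in ES cells, 55.7 and 47 in the clones and 1243 and 1232 in MEF (4.31). Lox, which encodes a collagen cross-linking enzyme, was at 0.434 and 0.274 RPKM in ES cells, 28.2 and 26.7 in the clones and 480.4 and 478 in MEF (4.39). The lower gene was Tagln, a smooth muscle gene at 125 and 120.2 RPKM in ES cells, 21.7 and 23.6 in the clones and 2116 and 2131 in MEF (−2.39). Ctgf, at 19.7 and 20.1 (ES) against 26.7 and 21.8 (4F), was not called (limma adjusted p = 0.0517). Its call depended on the setting: it was called higher under 7 of 16 other settings and was at −4.39 after the subtraction of a fibroblast share, with 1205 and 1183 RPKM in MEF.

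The 12 fibroblast markers summed to 6.42 and 5.84 RPKM in ES cells, 209 and 182.5 in the 4F clones and 4534 and 4472 in MEF. Of the 12, 11 reached 1 RPKM in both clones and 2 in both ES libraries; Fap was listed at 0 in both ES libraries. In these bulk libraries fewer cells of a type and less RNA per cell cannot be told apart. The level of the 33 fibroblast genes in the clones, as a percentage of that in MEF, ran from 0.362% for Acta2 to 83.7% for Lum, with a median of 6.6%. Dcn, a proteoglycan gene, did not follow the median: it was at 0.101 and 0.0707 RPKM in ES cells, 30.9 and 24.5 in the clones and 34.6 and 33.7 in MEF, 81.1% of the MEF level. Mmp2 was at 61.3%, and both it and the ends of this range were named after their values were seen.

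For each gene called 2-fold higher in the clones, the MEF level times that median share was set against the size of its rise. The share was taken from the fibroblast list itself, so for that list the outcome is largely set by how it was computed and is no evidence about it: the product reached 50% of the rise in 21 of 25 genes. The mesenchymal list, with 3 of 4, shares genes with it. The product reached 50% in 0 of 17 interferon genes, 0 of 13 MHC class I genes and 0 of 14 epithelial genes. It reached 50% in 0 of 14 glycolysis genes, 0 of 13 low-oxygen genes and 0 of 10 primed genes. In the p53 and senescence list it did so in 0 of 13 genes. It did so in 1 of 5 Nodal and TGF-beta genes and 1 of 3 BMP genes. Of imprinted genes it did so in 1 of 2 in the Dlk1-Dio3 domain and 1 of 7 others. The share was also subtracted from both clones, without scaling up what was left, an alternative chosen after seeing the data. Then 12 fibroblast genes were called higher and 15 lower, with a median of −0.18, a balance that follows from the use of the median. Col1a1 and Lox were then at −1.39 and −0.43, and Bgn and Dcn at 2.97 and 4.60. The counts called higher were then 21 for the interferon list, 21 for epithelial, 19 for glycolysis and 18 for low-oxygen genes. They were 21 for the p53 and senescence list and 11 for primed genes. Each of these counts was the same without the subtraction. Other lists changed. Nodal and TGF-beta genes called lower went from 8 to 11 with it, and mesenchymal genes called higher from 5 to 1. The FGF and ERK median went from −0.49 to −0.81, and the p53 and senescence median from 1.05 to 0.97. A single share was used for every gene, although fibroblast genes ran from 0.362% to 83.7% of the MEF level. The part of fibroblast RNA in the differences of these lists was not tested. Among all genes tested, 47.9% reached 10 RPKM in MEF, beside 33.7% of the genes 2-fold higher and 36.7% of those 2-fold lower in the clones.

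**Figure D5:**
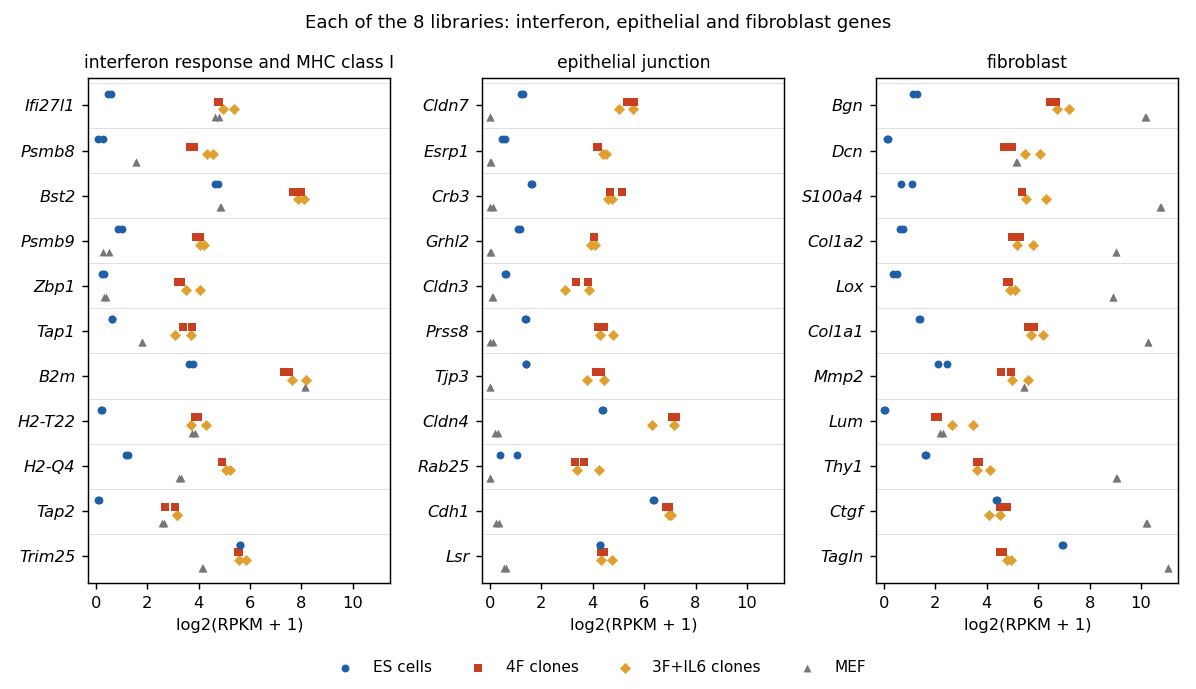
log2(RPKM + 1) in each of the 8 libraries for interferon and MHC class I genes (left), epithelial junction genes (middle) and fibroblast genes (right). MEF hold most fibroblast genes far above the 4F clones, as for Bgn, and hold Cldn7 at 0, while Dcn and Lum are near the MEF level in the clones.

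Markers of other cell types were summed in the same way. The 7 endoderm markers summed to 7.43 and 7.07 RPKM in ES cells and 7.06 and 5.84 in the clones, with Ttr at 0 in both clones. The 6 trophoblast markers summed to 15.4 in each ES library and 23.3 and 21.4 in the clones, the 5 muscle markers to 20.1 in each ES library and 28.6 and 28.8 in the clones, and the 5 neural markers to 52.5 and 53 in ES cells and 32.1 and 33.4 in the clones. Among the muscle markers Myl4 was higher (1.55), Actc1 was lower (−1.36) and Des was not called (−0.11). In the longer lists, the neural transcription factor genes Pax6, at 6.25 and 6.13 (ES) against 0.106 and 0.124 (4F; difference −2.69), and Sox1 (−1.75) were lower. Of 12 neural genes tested, 8 were called lower and 3 higher. Of 9 muscle genes, 5 were called lower and 2 higher, with the actin gene Acta1, at 12.4 and 12.2 (ES) against 1.34 and 1.15 (4F; difference −2.57), and the myosin light chain gene Myl9 (−2.44) the lowest. The higher members were the myosin light chain genes Myl4, at 5.12 and 4.52 (ES) against 15.3 and 16.8 (4F; difference 1.55), and Myl7 (1.02). The blood and macrophage markers summed to 13.2 and 14.9 RPKM in ES cells and 31.9 and 33.6 in the clones; Cd68, at 13.1 and 14.8 (ES) against 31.5 and 33.3 (4F), held nearly all of this, and Emcn was at 0 in every ES and 4F library. Of 8 genes tested in the longer blood and endothelial list, 5 were called higher and 1 lower. Lyz2, the lysozyme gene of myeloid cells, was listed at 0 in both ES libraries and was at 19.13 and 16.2 RPKM in the clones. The lower gene was Sfpi1, at 1.59 and 1.62 (ES) against 0.385 and 0.121 (4F; difference −1.06). In the extraembryonic endoderm list, which is not the set of 7 endoderm markers, 7 of 14 genes tested were called higher and 6 lower. Its lipid carrier gene Apoe was at 196 and 194 RPKM in ES cells and 1022 and 944 in the clones (2.32). MEF held Apoe at 3.23 and 4.13 RPKM. In the same list Gata6 (−0.92) and Sox7 (−0.90) were lower, and Gata4 (0.12) was not called.

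Among the largest differences, several belonged to none of the lists. Higher in the clones were Plac8, at 0.765 and 1.31 RPKM in ES cells and 75.5 and 71.7 in the clones (5.21), the matrix gene Fbln2 (4.98), which MEF held at 585 and 582 RPKM against 53.9 and 43.1 in the clones and which was at 2.62 with the fibroblast share subtracted, the chemokine gene Ccl7 (4.74) and Ipp, a kelch-like gene named for its transcription from an intracisternal A particle. Ipp was at 5.91 and 5.55 RPKM in ES cells and 151 and 156 in the 4F clones, with 155 and 117 for 3F+IL6 and 3.77 and 4.29 for MEF, a difference of 4.52 (SE 0.054; limma adjusted p = 3.91e-06). Lower in the clones were Aard, at 127 and 126 against 3.49 and 5 RPKM (−4.62), Enox1, at 25.3 and 24.7 against 0.164 and 0.221 (−4.45), and the small GTPase gene Mras, at 43.7 and 43.5 against 1.61 and 1.51 (−4.12). The zinc finger gene Rex2 (−3.54), Dusp27 (−3.40), the myosin gene Myo1f (−3.36) and Arhgap19 (−3.18) followed. Each of these genes had both 4F values on 1 side of both ES values, which a call requires.

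Y-linked genes were lower in the clones and X-linked genes more often higher than lower, a pattern looked into after the values were seen. Eif2s3y (chrY:1010543-1028847), a Y-linked translation factor gene, was at 36.9 and 36.8 RPKM in ES cells, 0.43 and 0.405 in the clones and 31.3 and 29.7 in MEF. It had the lowest difference among the genes named here, −4.74 (SE 0.071; limma adjusted p = 3.91e-06). Ddx3y, at 11.3 and 11.8 (ES) against 0.197 and 0.185 (4F; difference −3.39), and Uty, at 3.98 and 4.03 (ES) against 0.159 and 0.135 (4F; difference −2.13), were lower too, as were all 4 Y-linked genes tested. The 3F+IL6 clones were low as well, at 0.337 and 0.674 RPKM for Eif2s3y, 0.237 and 0.401 for Ddx3y and 0.112 and 0.105 for Uty. Kdm5d, a Y-linked gene that was not tested, was near 0 in both groups, at 0.148 and 0.144 (ES) against 0.121 and 0.0428 (4F), and at 3.07 and 3.13 RPKM in MEF. Xist, the RNA that silences an X chromosome, was at 0.0103 and 0.0575 RPKM in ES cells and 0.743 and 1.16 in the clones, did not reach 1 RPKM in 2 libraries and was not tested. It overlaps its antisense partner Tsix (−0.88), and whether the counting used strand is not given. Of 440 X-linked genes tested, 260 (59.1%) were called higher and 77 (17.5%) lower in the clones, with a median of 0.34. Across the 19 autosomes the share called higher ran from 27.2% to 44.1% and the median from −0.25 to 0.07. The X-linked gene Rlim, which regulates Xist, was at 17.1 and 17.2 (ES) against 43.6 and 44.1 (4F; difference 1.31), and Eif2s3x at 124 and 127 (ES) against 204 and 219 (4F; difference 0.74). The 3F+IL6 clones held Xist at 1.23 and 1.24 RPKM, Rlim at 43.95 and 34.02 and Eif2s3x at 217 and 211.

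Genes were counted that had at most 0.1 RPKM in all libraries of a strain and at least 5 in all of the other. These limits leave out genes with smaller differences, so the counts do not measure the part of strain, which was not tested. No gene had at least 5 RPKM in both ES libraries and at most 0.1 in all 6 BALB/c libraries. At most 0.1 in both ES libraries and at least 5 in all 6 BALB/c libraries were 7 genes: Col3a1, Efemp1, Ltbp2, Prl2c2, Prl2c3, Serpina3h and Tmem176b. Prl2c2 and Prl2c3, near-identical proliferin genes, were listed at 0 in both ES libraries and in the clones were at 9.64 and 12.2 RPKM for Prl2c2 and 6.34 and 7.05 for Prl2c3. MEF, which are also BALB/c, held Col3a1 at 89.1 and 89.6 RPKM and Efemp1 at 16.5 and 16.3, so for these genes strain and cell type cannot be told apart.

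The clones themselves differed little from each other. The median absolute difference between them was 0.10 on the log2 scale over the genes tested, beside 0.06 between the ES libraries. At least 1.5 log2 units apart, with 5 RPKM or more in the higher library, were 26 genes between the clones and 41 between the ES libraries. Of these, 17 and 37 were RNAs without a poly-A tail, which oligo-dT selection retains unevenly. Amd2 differed most between the clones, at 32.9 RPKM in 4F clone 1 and listed at 0 in clone 2 and in both ES libraries. Summed, Rn45s, Rpph1 and Rmrp, which belong to this class, were at 89.8 in ES 1 but 704 in ES 2, and 610 and 596 in the clones; none of the 3 was called. Of 15 listed RNAs of this class tested, 8 were called higher in the clones, among them Snord95 (1.91). This count was 14 without ES 2 and 5 without 4F clone 1.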

How the data were processed

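Polyadenylated RNA was taken from 500 ng of total RNA with the TruSeq version 2 kit and sequenced as 50-base reads, per the labels' protocols, and mapped to mouse build mm10, per the submitters' processing notes. The authors made and deposited RPKM values, 1 table per library; this unit was inferred from the values, as the file headers do not name it. The sources used here do not give the aligner, the counting tool, its use of strand or the gene models. Depth was estimated from the smallest steps between low values, of which 54.8% to 61.5% fell within 0.1 of a whole read, too few to recover reads, so no count test was run.

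From these RPKM values, log2(RPKM + 1) was fitted with limma (version 3.58.1, R 4.3.3, Python 3.11.15) with a trend in the prior variance, over 12190 genes with at least 1 RPKM in 2 or more of the 4 libraries. The fit was tested on simulated data. Coordinates are from GENCODE for mm10. Gene symbols were matched to that annotation for 21024 of 23389 symbols, with 205 more from RefSeq, 1891 more through older symbols and 269 unmatched.

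The comparison, its members and the 40 gene lists were chosen with earlier results of these data known. Named genes are the 12 largest called differences in each direction with a group mean of at least 5 RPKM, the 4 reprogramming factors, up to 6 called and 3 uncalled members of each list, members of lists of 12 or fewer, and genes of the strain and within-pair patterns. Hif1a, Epas1, Kdm3a, Pdk1, Eno3, Ldhb, Hk2, Foxd3, Etv4, Spry1, Dusp4, Marveld2, Spint1, Xaf1, Trp53, Plk3, 9630033F20Rik, Kdm5d, Xist, Lum, Mmp2 and Acta2 were named after their values were seen. Other settings tried numbered 16, of which 3 were chosen after seeing the data: leaving out RNAs without a poly-A tail, subtracting a fibroblast share and leaving out genes of chromosomes X and Y.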

Additional observations from a re-analysis of the deposited data

How the results depend on the processing

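Of 2908 values of 184 named genes under 16 other settings, 2859 kept their direction and their side of the threshold, and of 1280 counts of called list members 1210 were within 1.5 times. With genes of mean RPKM of at least 5 only, which leaves 8365 genes, 2847 were called higher and 1347 differed 2-fold, 703 higher and 644 lower. After subtraction of a fibroblast share, without scaling up what was left, 1508 genes were 2-fold lower. The median difference over the members of all lists was 0.24, and it was 0.146 with no filter on low values and 0.0778 after that subtraction. Leaving out each library in turn gave 7645 to 9334 called genes, 940 to 1103 of them 2-fold lower and 1356 to 1455 2-fold higher, and 165 to 174 called named genes. With 1 library in a group, that library is assumed to vary like the others.

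Changes of sign among named genes came with small differences or with the fibroblast subtraction. With quantile normalization Pou5f1 was at −0.29, Slc2a3 at −0.07, Etv5 at 0.01, Socs3 at 0.00, Trim25 at 0.02 and Mycn at 0.00. Leaving out each library in turn, Pou5f1 ran from −0.01 without 4F clone 1 to 0.09 without clone 2, Utf1 from −0.03 to 0.28 and Perp from −0.03 to 0.09 in the same order. Zic2 ran from 0.08 to −0.22, Rhox5 from 0.03 to −0.14, Socs3 from −0.15 to 0.00 and Eed from 0.12 to −0.08. After the fibroblast subtraction Dusp4 and Eed were at −0.00, Inhba at −0.43, Twist2 at −0.19, Col1a1 at −1.39, Lox at −0.43 and Ctgf at −4.39. Calls of Max, Pecam1, Dusp4 and Klf4 were lost under some settings. Max was at −0.20 with quantile normalization, and with all 8 libraries in the fit Klf4 had a limma adjusted p of 0.18, Pecam1 of 0.27 and Dusp4 of 0.078. The cause was not tested.

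The replicate numbers were checked for pairing. The deviations of ES 1 and 4F clone 1 from their group means correlated at −0.0685 across genes, over 2 pairs. With 2 libraries in a group the second deviation mirrors the first, so this value cannot decide whether the numbers pair the libraries. With the replicate number as a replicate block, 9345 genes were called, with 1409 2-fold higher and 1001 2-fold lower, and 169 named genes were called. Depth of 11700000 to 15700000 reads per library limits what can be said of genes under 1 RPKM.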
